A study of Mus musculus with 4 samples.

Results

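The genes described here encode mitochondrial ribosomal proteins in mouse lymphoma of the spleen. They were chosen by name alone, as every gene in the deposited count table whose symbol is MRPL or MRPS followed by a number and at most 1 letter. This gave 78 of 24943 genes, 51 of them for proteins of the large subunit and 26 for proteins of the small subunit. The remaining gene, Mrps36, carries the name of a ribosomal protein but is known for a subunit of the 2-oxoglutarate dehydrogenase complex.

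The mitochondrial ribosome sits in the matrix and makes the few core subunits of the respiratory chain and ATP synthase that mitochondrial DNA encodes. Its RNA comes from mitochondrial DNA, while every one of its proteins is encoded in the nucleus, made in the cytosol and imported. Many of the proteins have a counterpart in the bacterial ribosome, and the others arose in mitochondria and surround the RNA core. In lymphoid cells, activation and proliferation are known to go with growth of mitochondrial mass and with production of this ribosome.

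The study asks about a TP63 fusion in mouse lymphomagenesis. Sequencing covered poly(A) RNA in 4 samples of cells from enlarged, tumour-bearing spleens of transgenic mice, after lysis of red cells and with no sort described. The labels name neither the transgene and its promoter nor the age or strain, and they are the same for all 4 samples, which therefore form 1 group. Sample GW19 is called lymphoma 1, sample GW95 lymphoma 2, sample GW255 lymphoma 3 and sample GW328 lymphoma 4. There is no control group and no test between conditions, and nothing in the labels says that the samples came from separate animals, so part of their spread could be technical.

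The libraries held 7773546 to 9602413 counts, with lymphoma 4 the smallest. Levels are CPM (counts scaled to a common library total), on library sizes adjusted by edgeR's TMM factors, and intervals are exact 95% intervals for counting error alone. The labelled tissue was checked against markers. The summed level of 3 leukocyte genes was 1871 to 3518 CPM. The rows of the globin genes Hba-a1 and Hbb-b1 held 0 counts in every library, and the Hbb-b1 row matched no GENCODE M21 symbol. Whether annotation or read assignment emptied these rows was not tested, so they give no measure of red cells. Of 8 B cell markers, 8 were lowest in lymphoma 1, where their sum was 71.5 CPM against 1394, 4892 and 6093 CPM in lymphomas 2, 3 and 4. The sum of 8 T cell markers was 4668 and 3598 CPM in lymphomas 1 and 2 and 381 and 933 CPM in lymphomas 3 and 4.

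Lymphomas 1 and 2 stood closer together than any other pair. Of all genes, 71 had 20 CPM or more in lymphoma 1 and at most 1 twentieth of that level in both lymphomas 3 and 4, and lymphoma 2 held a median of 0.669 of the level of lymphoma 1 for them (interquartile range 0.645 to 0.712). For the 78 mitochondrial ribosomal genes the same ratio had a median of 0.742 (0.708 to 0.773). Around 1 common ratio, the counts of the 78 genes scattered 1.996 times as much as counting error between lymphomas 1 and 2, and 26.9 to 50.7 times in the other 5 pairs. Over all genes tested the scatter was 42.1 times counting error between lymphomas 1 and 2, and 127 to 315 times in the other 5 pairs. Whether lymphomas 1 and 2 share cells was not tested, and the counts of genes lowest in lymphoma 4 and of genes 2-fold apart are also given without each of them.

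Start sites were examined because members that move together make their upstream bases of interest. RefSeq promoter windows (GRCm38.p6, 250 bases before to 50 after a start) were at hand for 69 of the 78 genes, in 75 windows. The letters searched on both strands were GCGCA, any base and GCGC in a row for NRF1, CCGGAAG for the ETS factors that include GABP, AAGATGG for YY1, CACGTG for an E-box and TATAAA for a TATA box. NRF1, GABP and YY1 are known regulators of nuclear genes for mitochondrial proteins. The 150 bases before the start follow for the genes on which the results turn, with matches in capitals. Mrpl12 and Mrpl27 had 2 of the 3 largest ranges over the libraries, Mrpl44 had the smallest range in the large subunit with TMM sizes, Mrpl34 and Mrpl52 had the highest levels per kilobase, Mrps18a was highest in lymphoma 3, and Mrps6 was the exception described further on.
Mrpl12 (chr11:120484487-120484636, plus strand): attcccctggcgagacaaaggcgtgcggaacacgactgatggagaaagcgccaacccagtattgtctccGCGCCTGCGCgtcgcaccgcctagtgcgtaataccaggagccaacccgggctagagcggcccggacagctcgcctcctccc
Mrpl44 (chr1:79775868-79776017, plus strand): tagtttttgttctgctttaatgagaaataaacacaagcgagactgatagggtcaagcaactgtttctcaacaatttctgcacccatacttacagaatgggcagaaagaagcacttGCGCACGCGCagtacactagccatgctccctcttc
Mrpl27 (chr11:94653641-94653790, plus strand): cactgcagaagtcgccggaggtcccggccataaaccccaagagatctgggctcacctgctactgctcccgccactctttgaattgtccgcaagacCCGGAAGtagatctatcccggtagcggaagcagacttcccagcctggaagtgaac
Mrps18a (chr17:46110854-46111003, plus strand): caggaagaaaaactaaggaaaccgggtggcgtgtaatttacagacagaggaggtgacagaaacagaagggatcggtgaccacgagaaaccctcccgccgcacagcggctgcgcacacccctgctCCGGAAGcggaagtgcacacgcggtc
Mrpl34 (chr8:71464776-71464925, plus strand): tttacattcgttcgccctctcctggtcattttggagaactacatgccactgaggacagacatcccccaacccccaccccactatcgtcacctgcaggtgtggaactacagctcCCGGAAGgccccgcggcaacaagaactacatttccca
Mrpl52 (chr14:54426759-54426908, plus strand): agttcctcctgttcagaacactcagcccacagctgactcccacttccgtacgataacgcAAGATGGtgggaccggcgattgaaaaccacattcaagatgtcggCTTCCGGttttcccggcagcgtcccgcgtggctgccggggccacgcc
Mrps6 (chr16:92058186-92058335, plus strand): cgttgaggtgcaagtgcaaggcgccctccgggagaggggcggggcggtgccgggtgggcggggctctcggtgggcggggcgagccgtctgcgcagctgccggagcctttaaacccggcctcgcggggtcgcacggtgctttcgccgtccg
The capitals mark NRF1 letters in Mrpl12 and Mrpl44, ETS letters in Mrpl27, Mrps18a and Mrpl34, and YY1 letters followed by ETS letters in Mrpl52, the latter read on the opposite strand. The Mrps6 window held none of the letters searched.

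ETS letters stood in the windows of 26 of the 69 genes (37.7%), against 19.6% of 10549 tested genes and 8.86% of all 32851 windows of this length. NRF1 letters were found in 13 genes (18.8%), against 11.1% of tested genes and 4.60% of all windows. YY1 letters were also found in 13 genes (18.8%), against 8.40% and 6.34%. At least 1 of these 3 sequences was present in 43 of the 69 genes, while 33.9% of tested genes had 1. The E-box was found in 5 genes (7.25%, against 11.5% of tested genes and 7.15% of all windows), and the TATA box also in 5 (against 8.87% and 13.6%). Other gene lists also held these letters. Of 56 cytosolic ribosomal protein genes, 41.1% had ETS letters, 8.93% NRF1 letters and 16.1% YY1 letters. For 65 nuclear subunits of oxidative phosphorylation the shares were 26.2%, 26.2% and 16.9%. The members were thus not the highest list for ETS or NRF1 letters. Median GC content was 58.7% in the 75 windows and 60.3% in windows of tested genes. The median log2 difference between lymphomas 1 and 4 was 2.09 with ETS letters and 1.79 without. It was 2.10 with NRF1 letters and 1.89 without, and 2.14 with YY1 letters and 1.79 without. The E-box had a gap in the same direction, 2.06 with and 1.85 without. The TATA box went the other way, with 1.64 with and 1.999 without. These gaps were not tested. A match describes the letters and is not evidence of binding.

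Lymphoma 4 had the lowest level for nearly the whole set. Mitochondrial ribosomal genes took 0.668% of all counts in lymphoma 1 (Clopper-Pearson interval 0.663 to 0.673), 0.566% in lymphoma 2 (0.561 to 0.571), 0.628% in lymphoma 3 (0.623 to 0.633) and 0.245% in lymphoma 4 (0.242 to 0.249). The first 3 libraries lay close together and lymphoma 4 lay below them by more than the counting error. The mean share was 0.527% ± 0.192 (SD, n = 4), and 0.620% without lymphoma 4. In bulk RNA, fewer cells of a type and less RNA per cell cannot be told apart.

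The median gene of the set was at 92.3, 74.7, 70.5 and 25.3 CPM in lymphomas 1 to 4. On the log2(CPM + 1) scale used for differences, these medians were 6.54, 6.24, 6.16 and 4.72 (mean 5.92 ± 0.82, SD, n = 4). All 78 genes passed the filter of 1 CPM in at least 1 library, and the lowest count behind any value was 55, for Mrpl53 in lymphoma 4. Depth therefore did not put any member near the limit of 3 counts that a count of 0 allows.

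Of the 78 genes, 77 were lowest in lymphoma 4, as were 33.2% of the 13543 genes tested, and 1 was lowest in lymphoma 3 (21.3%). The count was also 77 without lymphoma 1 (36.2% of genes tested) and without lymphoma 2 (33.8%), and 78 without lymphoma 3 (44.3%). A gene lowest in lymphoma 4 stays lowest when another library is left out, except through refitted scaling. These counts could therefore hardly fall. The highest library was lymphoma 1 for 65 genes (29.4% of all genes tested) and lymphoma 3 for 13 (30.4%). The count of 65 depended on the scaling. It was 51 with total counts, 69 with DESeq2 size factors and 70 with upper quartile factors. No member was highest in lymphoma 2 (6.32%) or in lymphoma 4 (34%). Only 4 orders of the libraries occurred, and all 78 genes were higher in lymphoma 1 than in lymphoma 2 and higher in lymphoma 2 than in lymphoma 4, an order held by 36.7% of genes tested. With total counts in place of TMM sizes, 76 of the 78 were higher in lymphoma 1 than 2, and 77 higher in lymphoma 2 than 4. The heat map shows the 77 low values of lymphoma 4 as a nearly unbroken blue column.

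**Figure D1:**
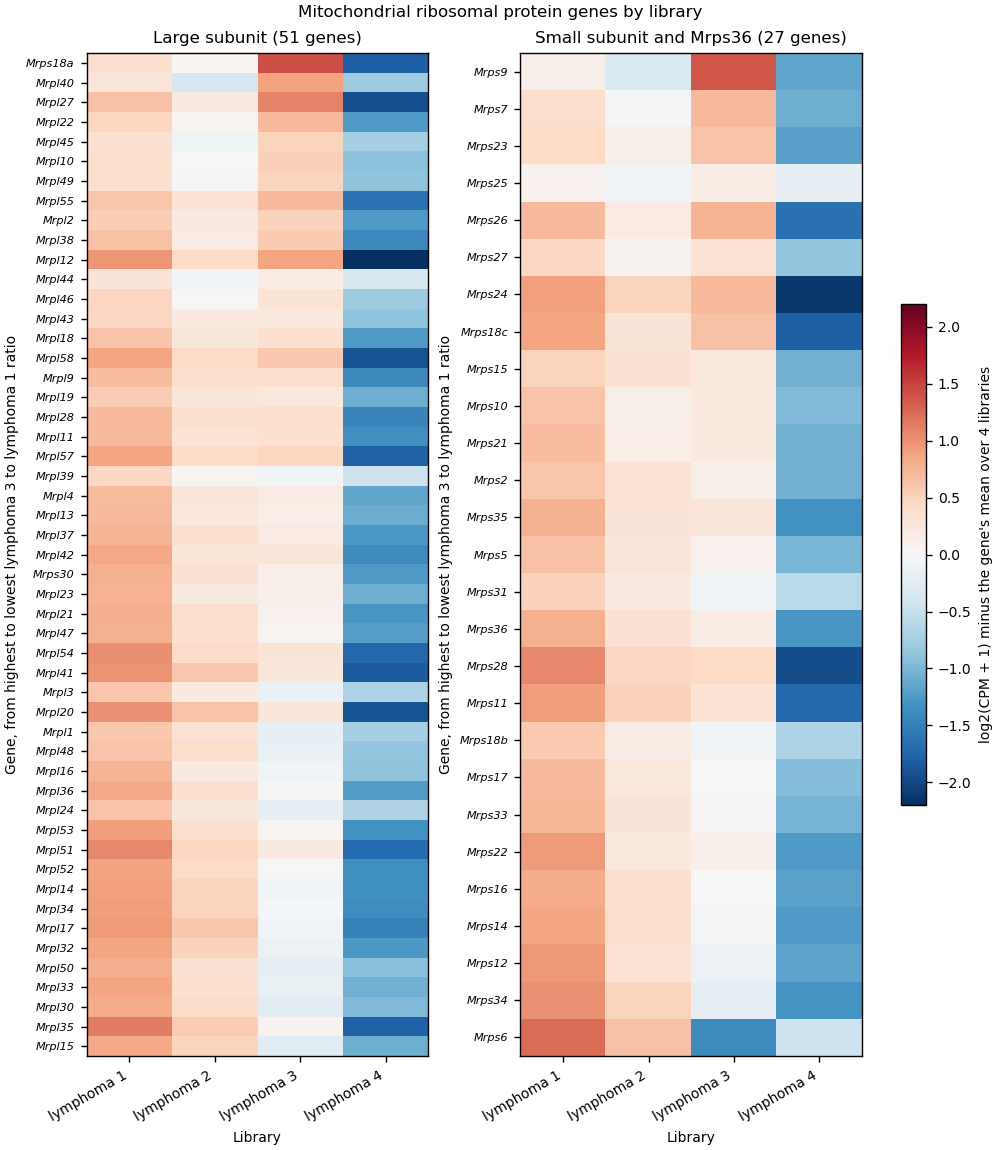
Each row is a gene and each column a library. Colour gives log2(CPM + 1) minus the gene's mean over the 4 libraries, from blue (below) to red (above), and genes run from the highest to the lowest ratio of lymphoma 3 to lymphoma 1. Lymphoma 4 is the lowest library in 77 of 78 rows, Mrps6 being the exception, and Mrps25 and Mrpl44 are nearly pale throughout.

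The highest and lowest library lay 2-fold or more apart in CPM + 1 for 75 of the 78 genes, against 75.6% of all genes tested. The exceptions were Mrps25, Mrpl44 and Mrpl39. The count fell to 11 when lymphoma 4 was left out, and was 71 without lymphoma 1, 75 without lymphoma 2 and 75 without lymphoma 3. Over lymphomas 1 to 3 in the same scaling, 11 genes (14.1%) were 2-fold apart, against 48.8% of all genes tested. The median range over those 3 libraries was 1.55-fold for the members and 1.97-fold for all genes tested, whereas over all 4 libraries it was 4.02-fold and 2.98-fold. The set was thus narrower than the background among the first 3 libraries and wider once lymphoma 4 was included.

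Differences between single libraries are given as the median log2 difference over the 78 genes. Lymphoma 1 exceeded lymphoma 4 by 1.96 (interquartile range 1.60 to 2.24, or 3.88-fold at the median), while the median over all genes tested was -0.12. Lymphoma 2 exceeded lymphoma 4 by 1.49, and lymphoma 3 exceeded it by 1.34, against medians of 0 and 0.06 over all genes. The counts 2-fold or more above lymphoma 4 were 75 in lymphoma 1 (24.6% of genes tested), 64 in lymphoma 2 (19.8%) and 62 in lymphoma 3 (23.2%). These comparisons share lymphoma 4 and are not independent of each other.

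**Figure D2:**
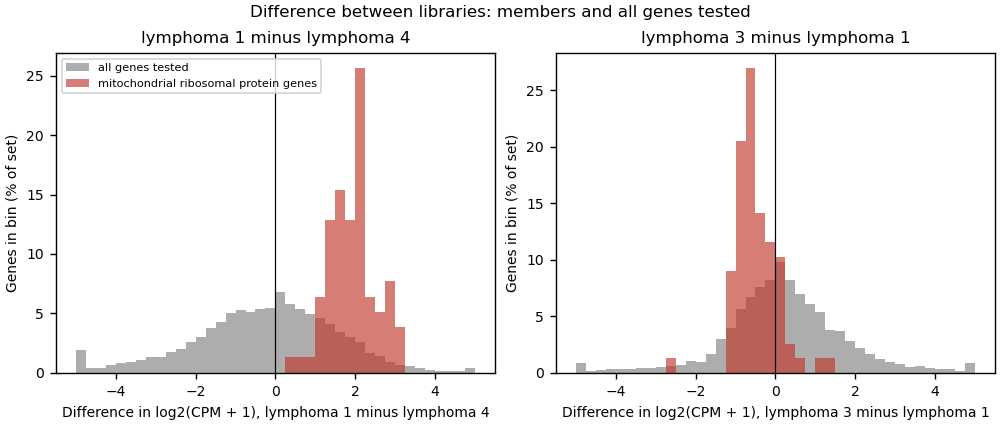
Bars give the percentage of genes in each bin of the log2(CPM + 1) difference, in grey for the 13543 genes tested and in red for the 78 mitochondrial ribosomal genes, with values beyond 5 in either direction placed in the outermost bins. All 78 members lie right of 0 for lymphoma 1 minus lymphoma 4 (median 1.96), and most lie left of 0 for lymphoma 3 minus lymphoma 1 (median -0.58).

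Other properties of lymphoma 4 moved with this result. Its total count was the lowest, its summed neutrophil markers were 621 CPM against 22.0 to 165 CPM in the other libraries, and its summed macrophage and monocyte markers were 386 CPM against 115 to 298 CPM. The defining neutrophil and macrophage genes were above 0 in it throughout, and 5 of 6 genes of each list were highest there (34% of all genes tested). Summed proliferation genes were 3957, 2967, 4726 and 582 CPM in lymphomas 1 to 4, with 14 of 15 lowest in lymphoma 4 (33.2% of all genes tested). The part of each of these in the levels of the mitochondrial ribosomal genes was not tested.

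Transcript length moved with the difference as well. Across the 78 genes, exonic length and the log2 difference between lymphomas 1 and 4 had a Spearman rho of -0.23, and across 13409 genes with a length it was -0.26. This is a description across genes of the same pair of libraries. The members were shorter than most, with a median of 2394 bases (607 for Mrpl34 to 8631 for Mrps35) against 4268. With the median shift of genes of like length subtracted in each library, the median differences from lymphoma 4 were 1.75, 1.26 and 1.12 for lymphomas 1 to 3. In that setting 74 members were lowest in lymphoma 4 (32.5% of genes), and 67 were 2-fold apart (73.9%).

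The large subunit carries the peptidyl transferase centre, where the peptide bond forms. Lymphoma 4 was the lowest library for all 51 of its genes, and lymphoma 1 the highest for 43. Their median log2 difference between lymphomas 1 and 4 was 2.01, and 49 were 2-fold or more higher in lymphoma 1. The summed level of large subunit genes was 2.39, 2.43, 2.15 and 2.17 times that of small subunit genes in lymphomas 1 to 4, so the balance of the subunits stayed within a narrow band.

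The stalk of the large subunit recruits translation factors and holds the proteins of Mrpl10, Mrpl11 and Mrpl12. Mrpl12, which is also known to bind the mitochondrial RNA polymerase, was at 281, 188, 262 and 29.2 CPM in lymphomas 1 to 4 (chromosome 11, 120484613 to 120489065). Lymphomas 1 and 3 were high, and lymphoma 4 was low by the widest log2 range of any member, 3.22. The ratio of lymphoma 1 to lymphoma 4 was 9.62 (8.47 to 10.96). Mrpl10, which anchors the stalk, was at 112, 84.5, 123 and 45.0 CPM, a smaller gap. Mrpl11, at the base of the stalk, was at 91.6, 68.4, 70.6 and 21.3 CPM. The 3 stalk genes shared the low level in lymphoma 4 and differed in its size.

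The central protuberance, built around the structural RNA at the top of the subunit, was represented by 8 genes. All 8 were lowest in lymphoma 4 and all 8 were 2-fold or more higher in lymphoma 1 than there, with a median log2 difference of 1.96. Mrpl27, whose bacterial counterpart reaches the peptidyl transferase centre, was at 56.2, 40.8, 77.4 and 8.58 CPM, with lymphoma 3 the highest. The ratio of lymphoma 3 to lymphoma 4 was 9.03 (7.15 to 11.5). Mrpl58, derived from a peptide release factor and also known as Ict1, was at 128, 95.7, 105 and 18.03 CPM. Mrpl40 was at 38.9, 24.8, 60.5 and 18.4 CPM, and its lymphoma 3 value was 1.56 times that of lymphoma 1 (1.36 to 1.79).

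Proteins around the exit tunnel, through which the new chain leaves toward the inner membrane, came from 6 genes. All 6 were lowest in lymphoma 4, with a median log2 difference of 1.51 between lymphomas 1 and 4, and 5 were 2-fold or more higher in lymphoma 1. The exception was Mrpl44, at 56.7, 43.8, 52.0 and 36.0 CPM. Its range of 0.64 on the log2 scale was the smallest of the large subunit with TMM sizes, and lymphoma 1 exceeded lymphoma 4 1.58-fold (1.36 to 1.82). Mrpl24 was at 199, 154, 111 and 81.3 CPM, with a lymphoma 1 to 4 ratio of 2.45 (2.24 to 2.68).

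Levels of different genes are compared per kilobase of exonic length. This length is the union of all annotated exons, whichever were expressed, so the ranks also depend on the annotation. The median member was at 24.9 CPM per kilobase over the 4 libraries, against 5.33 for all genes tested. In the large subunit the highest were Mrpl34 (130.01 ± 72.7 CPM per kilobase, SD, n = 4), Mrpl52 (127 ± 67.6) and Mrpl12 (124 ± 74.8). Mrpl34 is a small protein with a bacterial counterpart, whereas Mrpl52 is specific to mitochondria. The lowest were Mrpl47 (5.29 ± 2.66), Mrpl1 (7.54 ± 2.91) and Mrpl32 (8.96 ± 4.91). The 3 highest overlapped each other within 1 SD, as did the 3 lowest, while each of the 3 highest lay above each of the 3 lowest in every library.

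Mrpl34 was at 129, 95.4, 65.5 and 25.5 CPM in lymphomas 1 to 4, and Mrpl52 at 225, 166, 123 and 47.2 CPM. In both, lymphoma 1 was the highest and lymphoma 4 the lowest. Mrpl35 had a wide range of 2.93 on the log2 scale, with 79.7, 52.3, 37.4 and 9.57 CPM and a ratio of lymphoma 1 to 4 of 8.33 (6.65 to 10.55). Mrpl39 had a narrow range of 0.90, with 61.6, 47.0, 43.1 and 32.7 CPM. No library of Mrpl39 was 2-fold from another.

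The small subunit binds messenger RNA and decodes it. Lymphoma 4 was the lowest library for 25 of its 26 genes, and lymphoma 1 the highest for 21. Their median log2 difference between lymphomas 1 and 4 was 1.70, and 25 were 2-fold or more higher in lymphoma 1. By level per kilobase the highest were Mrps21 (84.0 ± 35.9 CPM per kilobase, SD, n = 4), Mrps24 (63.4 ± 36.3) and Mrps23 (61.1 ± 27.1). The lowest were Mrps10 (5.15 ± 2.09), Mrps35 (6.84 ± 3.34) and Mrps31 (8.13 ± 2.58). Mrps35 has the longest exonic length of the members (8631 bases). Before division by length, its log2 level lay near the member median of each library (-0.32 to -0.04 from it).

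Mrps24, near the entry of the messenger RNA, was at 135, 101, 119 and 15.8 CPM, with the first 3 libraries close together and lymphoma 4 far below. Its ratio of lymphoma 1 to 4 was 8.54 (7.17 to 10.2). Mrps28 was at 78.8, 51.1, 50.7 and 8.91 CPM, with a ratio of 8.85 (7.01 to 11.3). At the other end, Mrps31 was at 36.8, 29.6, 23.9 and 16.7 CPM and had a log2 range of 1.09. These 3 genes shared the lowest library but not the size of the gap.

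Mrps25 was at 95.4, 85.1, 99.9 and 79.2 CPM, and its range of 0.33 on the log2 scale was the smallest of all with TMM sizes. Its rank depended on the setting, since the range was 0.40 for Mrps25 and 0.38 for Mrpl44 with total counts, and 0.61 and 0.33 with length adjustment. Lymphoma 1 exceeded lymphoma 4 1.20-fold (1.09 to 1.34), and the log2 difference of 0.27 became -0.21 with total counts in place of TMM sizes, so its direction depended on the scaling. Of the exonic bases of Mrps25, 69.8% lie under exons of Nr2c2 on the opposite strand, and Nr2c2, a nuclear receptor gene, was at 60.3, 73.8, 111 and 118 CPM. Mrpl44 overlaps Wdfy1 on the opposite strand over 7.66% of its exonic bases, and Wdfy1 was at 3.92, 12.6, 19.9 and 115 CPM. Both overlapping genes were highest in lymphoma 4. Whether the counting used strand is not given in the sources used here, and the part of these genes in the 2 flat members was not tested.

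Mrps6 was the single gene whose lowest library was not lymphoma 4. It was at 40.5, 26.7, 5.69 and 11.9 CPM, from 321, 239, 58 and 108 counts. Lymphomas 1 and 2 were high, and lymphoma 3 was at 0.479 of lymphoma 4 (0.342 to 0.665) and at 0.140 of lymphoma 1 (0.104 to 0.186). All counts were well above the floor. The 10 nearest tested genes had a median log2 difference of 0.43 between lymphomas 3 and 1, and Mrps6 had -2.63. Its exons overlap those of 2 genes over 19.9% of their bases, including Slc5a3, a myo-inositol transporter on the same strand, which was at 2.91, 7.47, 1.08 and 17.3 CPM.

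**Figure D3:**
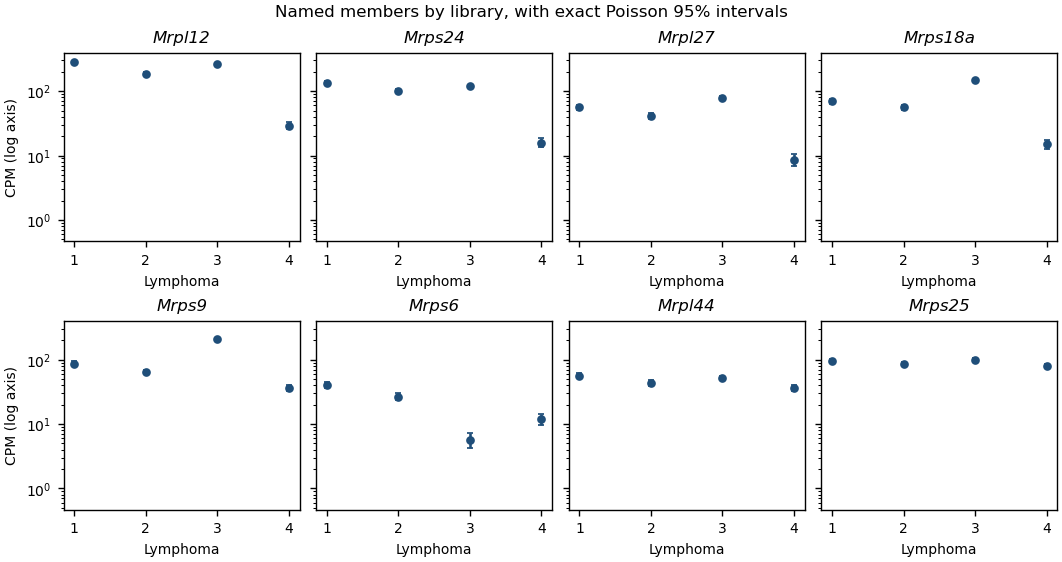
Points give CPM on a log axis in each of the 4 libraries, and bars are exact 95% Poisson intervals for counting error. Mrpl12, Mrps24, Mrpl27 and Mrps18a drop in lymphoma 4, Mrps9 and Mrps18a peak in lymphoma 3, Mrps6 is lowest in lymphoma 3, and Mrpl44 and Mrps25 are nearly flat.

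Lymphoma 3 was not uniformly below lymphoma 1. Its median log2 difference from lymphoma 1 was -0.58 over the members and 0.14 over all genes tested, and 8 members were 2-fold or more lower (15.3% of genes tested) while 2 were 2-fold or more higher (25.6%). The 2 were Mrps9 and Mrps18a. Mrps9, a small subunit gene with a bacterial counterpart, was at 87.3, 64.3, 210.4 and 36.3 CPM (chromosome 1, 42851233 to 42905683). Lymphoma 3 stood at 2.41 times lymphoma 1 (2.21 to 2.63). The 10 nearest tested genes had a median log2 difference of 0.16 between these libraries, against 1.26 for Mrps9.

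The 3 Mrps18 paralogs are versions of 1 bacterial protein, and the protein of Mrps18a is known to sit in the large subunit. Mrps18a was at 70.0, 56.3, 147 and 15.0 CPM (chromosome 17, 46110986 to 46128910), with lymphoma 3 at 2.10 times lymphoma 1 (1.90 to 2.32) and 9.83 times lymphoma 4 (8.24 to 11.8). Mrps18b was at 72.8, 54.9, 46.5 and 30.02 CPM, and Mrps18c at 78.8, 51.9, 67.6 and 11.5 CPM. The high value of lymphoma 3 was seen in Mrps18a and not in the other paralogs. The ratio of lymphoma 3 to lymphoma 1 was 0.639 (0.565 to 0.723) for Mrps18b and 0.858 (0.769 to 0.957) for Mrps18c, and neither interval reached that of Mrps18a.

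Relative to the median member of each library, 63 of the 78 genes kept within 2-fold over all 4 libraries, and the median relative range was 1.54-fold. The reference is the median of these same genes, which favours small relative ranges. No such share was computed over all genes tested. The widest relative log2 ranges belonged to Mrps6 (2.39), Mrps9 (1.78), Mrps18a (1.77), Mrpl12 (1.68), Mrpl27 (1.59) and Mrps25 (1.56). The narrowest was that of Mrpl4 (0.14). Proteins with a bacterial counterpart (46 genes) and those specific to mitochondria (31 genes) had median log2 differences of 1.91 and 2.01 between lymphomas 1 and 4. Mrps36, the dehydrogenase subunit, was at 45.0, 32.7, 28.9 and 10.01 CPM and followed the same order as most ribosomal members.

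Position on the chromosomes went with the difference between lymphomas 3 and 1. Chromosome 11 held 11 members, more than any other. Their median log2 difference was 0.14 (-0.28 to 0.46), with 7 of 11 higher in lymphoma 3 than in lymphoma 1 and all 11 higher than in lymphoma 2. The 67 members elsewhere had a median of -0.63, with 6 of 67 higher in lymphoma 3 than in lymphoma 1. Over all genes tested on chromosome 11 the median was 0.53 (1163 genes, 70.2% higher in lymphoma 3), against 0.11 over 12246 genes elsewhere (53.2%). The medians of the other chromosomes lay between -0.02 and 0.38. The count of 7 was 11 with total counts, 6 with DESeq2 size factors and 5 with upper quartile factors. The count of 6 of 67 elsewhere was 16, 3 and 3 in these settings. The sign of the median on chromosome 11 thus depended on the scaling (0.48, 0.0018 and -0.0012). The medians of the members elsewhere were -0.29, -0.76 and -0.77. Library scaling moves all genes by nearly the same amount, so these settings could not change the gap between chromosome 11 and elsewhere. No copy number was measured, and why chromosome 11 differs was not tested.

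**Figure D4:**
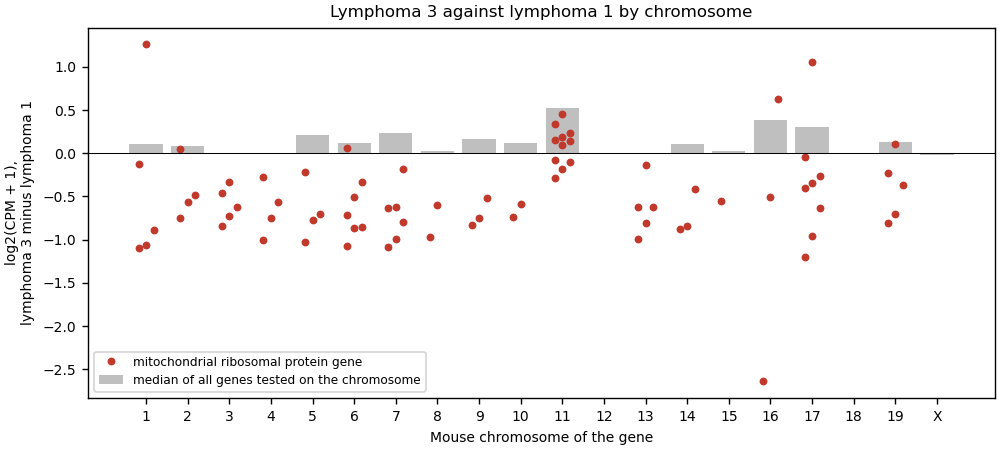
Points are the 78 mitochondrial ribosomal genes and grey bars the median of all tested genes on each chromosome, both as lymphoma 3 minus lymphoma 1 in log2(CPM + 1). The 11 points of chromosome 11 lie between -0.28 and 0.46 under the tallest bar (0.53), Mrps9 on chromosome 1 and Mrps18a on chromosome 17 lie highest, and Mrps6 on chromosome 16 lies lowest at -2.63.

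Many members start head to head with another gene. A protein-coding gene on the opposite strand started within 1000 bases for 18 of the 78 (23.1%), against 10.2% of 12587 tested protein-coding genes. Of 17 tested partners, 7 were lowest in lymphoma 4 (41.2%, against 33.2% of all genes tested). Another count, of partners 2-fold or more higher in lymphoma 1 than lymphoma 4, was 5 (29.4%, against 24.6%). Both shares lay near those of all genes tested. The partners had a median log2 difference of -0.13 between lymphomas 1 and 4, and their own mitochondrial ribosomal genes had 2.01. Mrps18c starts 29 bases from the DNA helicase gene Helq and differed by 2.67, whereas Helq differed by -1.31. Mrpl32 starts 75 bases from the proteasome gene Psma2, and the pair differed by 2.14 and 2.26. Mrpl57 starts 49 bases from the kinetochore gene Ska3, and the pair differed by 2.66 and 2.82. Differences were alike in some pairs and opposite in others, and the part of a shared start region was not tested.

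Some members are uncertain because of how reads can be assigned. Exons of 33 members overlap exons of another annotated gene, in 20 cases a protein-coding gene on the opposite strand. In 4 cases it is a protein-coding gene on the same strand. The share of exonic bases under any other gene was 88.0% for Mrpl53, 77.8% for Mrps34, 19.9% for Mrps6 and 15.4% for Mrps24. A stretch of 300 bases or more at 90% identity or more to another annotated gene was found for 25 members, for 24 of them to a pseudogene. Mrpl12, Mrpl27 and Mrps25 are among these. Of the 31 members with neither an overlap nor such a stretch, all 31 were lowest in lymphoma 4 and 30 were 2-fold or more apart, against the backgrounds of 33.2% and 75.6% already given. Mrps9, Mrps18a, Mrps28 and Mrpl35 had neither.

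Mitochondrial ribosomal proteins under other symbols behaved in the same direction. The list of 6 measured genes also holds Oxa1l, for the membrane insertase that receives the new chains, which is not itself a ribosomal protein. All 6 were lowest in lymphoma 4 (33.2% of all genes tested). The 5 other than Oxa1l were 2-fold or more higher in lymphoma 1 (24.6% of all genes tested, median log2 difference of the 6 genes 1.81). Dap3, a GTP-binding small subunit protein, was at 168, 128, 129 and 43.1 CPM. Chchd1 was at 111, 77.8, 61.2 and 21.7 CPM. Oxa1l was at 148, 113, 143 and 91.2 CPM, the smallest gap of the list.

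Factors that act on the mitochondrial ribosome had smaller median differences. Of 13 translation factors, 9 were lowest in lymphoma 4 and 5 were 2-fold or more higher in lymphoma 1 than there, with 2 lower (median 0.84). The elongation factor gene Tufm was at 232, 171, 110 and 53.4 CPM, and its exchange factor Tsfm at 61.6, 43.9, 39.5 and 8.47 CPM. The initiation factor gene Mtif2 went another way, with 25.3, 28.2, 75.2 and 30.6 CPM and its lowest level in lymphoma 1. Of 30 genes for assembly and modification of the ribosomal RNA, 24 were lowest in lymphoma 4, 9 were 2-fold or more higher in lymphoma 1 and 17 were highest in lymphoma 3 (median 0.64). The 9 of 30 lay near the share of all genes tested. C1qbp, at 628, 426, 468 and 99.2 CPM, and Ndufab1, at 184, 131, 93.7 and 26.7 CPM, had wide gaps within that list.

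Genes for upkeep and transcription of mitochondrial DNA differed by a median of 0.50 between lymphomas 1 and 4, with 9 of 16 lowest in lymphoma 4 (33.2% of all genes tested). Polg, the DNA polymerase of mitochondria, was at 76.4, 98.9, 133 and 94.3 CPM, and Slirp, which stabilises mitochondrial messengers, at 52.8, 40.8, 36.9 and 10.6 CPM. Among 14 transcriptional regulators of nuclear mitochondrial genes, 5 were lowest in lymphoma 4, near the share of all genes tested, and the median difference was -0.56. Myc, at 112, 149, 151 and 219 CPM, was highest in the library where the mitochondrial ribosomal genes were lowest. Nrf1, at 60.6, 63.6, 78.9 and 45.2 CPM, Gabpa, at 153, 116, 115 and 73.8 CPM, and Yy1, at 120.0, 111, 102 and 90.9 CPM, encode the factors whose letters were searched above. The 13 protein genes encoded by mitochondrial DNA were looked for under their mt- symbols. No row of the count table matched, so they are not described.

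Genes for other nuclear-encoded mitochondrial proteins shared the low level in lymphoma 4. Of all genes tested, 33.2% were lowest there and 24.6% were 2-fold or more higher in lymphoma 1. Of 26 genes for protein import and matrix chaperones, 26 were lowest there and 23 were 2-fold or more higher in lymphoma 1 (median 1.89). Of 77 nuclear subunits of oxidative phosphorylation, 75 were lowest there and 72 were 2-fold or more higher in lymphoma 1 (median 2.24). Cytosolic ribosomal protein genes, of which 74 of 76 passed the filter, had a smaller gap. Of the 74, 64 were lowest in lymphoma 4 and 58 were 2-fold or more higher in lymphoma 1 (median 1.42). The summed level of mitochondrial ribosomal genes was 3.01%, 3.04%, 4.36% and 2.23% of that of cytosolic ones in lymphomas 1 to 4, highest in lymphoma 3. These lists were described and not tested against each other.

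**Figure D5:**
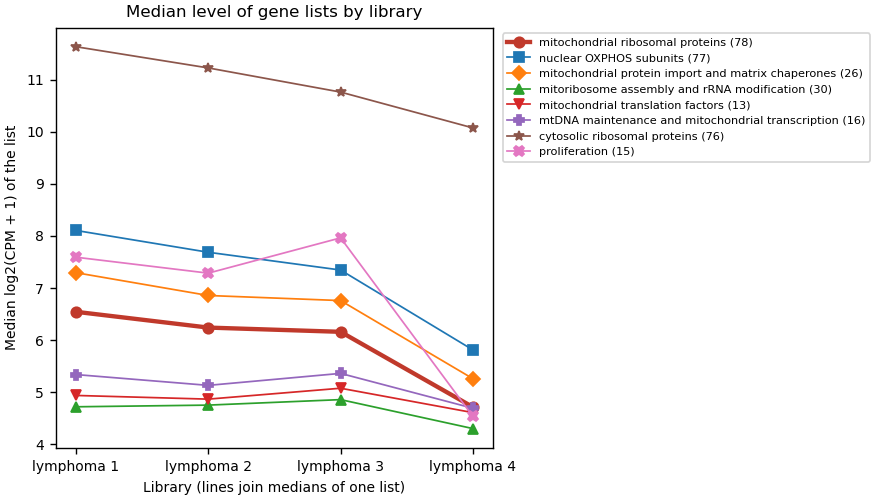
Each line joins the median log2(CPM + 1) of a gene list in lymphomas 1 to 4, with the number of genes in brackets. The mitochondrial ribosomal genes (thick line) go from 6.54 to 4.72, parallel to oxidative phosphorylation subunits and import genes, while assembly, translation factor and mitochondrial DNA lists change less and proliferation genes change most.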

How the data were processed

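The authors deposited whole-number gene counts, which STAR 2.4.2a made on build mm10 per the submitters' processing notes, and a second table read here as FPKM (Cufflinks 2.2.1 per the submitters' processing notes), which names no unit. For annotation and strand the setting is not given in the sources used here. Among 24969 count rows, 26 had a date for a name and were set aside (0.191% to 0.201% of each library). The FPKM table has 5 columns that match no sample, which were not used.

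CPM used edgeR 4.0.16 TMM factors (0.838, 0.961, 1.06 and 1.17 for lymphomas 1 to 4) from the 13543 genes that reached 1 CPM in any library, in R 4.3.3, and a pseudocount of 1 CPM on the log2 scale, which understates changes of low genes. Calls rest on a 2-fold rule of size, with no test and no p-value. The calls were also run on simulated counts that held counting error alone. That run cannot show how they behave under the wider spread of these libraries. A count of 0 allows 3 counts, or 0.294 to 0.379 CPM. Positions and exonic lengths, the union of all annotated exons, are from GENCODE M21 (GRCm38), where 24449 symbols matched, and near-identical stretches from BLAST 2.17.0.

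Members and gene lists were chosen with earlier results of these data known. Genes named are those highest and lowest per kilobase in each subunit, with the largest or smallest ranges, with an unusual highest or lowest library, the Mrps18 paralogs, Mrps36 and stalk genes, and in each list the highest and the widest-ranging gene. Others were chosen after their values were seen. Alternatives were DESeq2 1.42.0 size factors, total counts, upper quartile factors, other filters, a pseudocount of 0.25 CPM, the FPKM table, a length adjustment over 20 length bins, other fold rules, leaving out Mrps36 and leaving out each library.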

Additional observations from a re-analysis of the deposited data

Results flagged for a closer look

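In 5 of the 78 genes lymphoma 4 lay so far below the other 3 libraries that the gap to the nearest one, as a share of the gene's whole range in log2(CPM + 1), passed the 95% critical value of Dixon's test for 4 values. The share was 0.864 for Mrps24, 0.848 for Mrpl58, 0.844 for Mrpl9, 0.839 for Mrpl57 and 0.835 for Mrpl28. Chance flags about 1 in 20 groups of 4, and the 5 genes are 6.41% of the members, against 1212 of 13543 genes tested (8.95%), so the members did not exceed the background on this measure. Mrpl9 was at 139, 113, 111 and 31.7 CPM in lymphomas 1 to 4, Mrpl28 at 120.4, 93.8, 94.4 and 26.1 CPM, and Mrpl57 at 120.0, 89.0, 90.2 and 18.1 CPM. In these 3 genes lymphomas 2 and 3 were nearly level.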

How the results depend on the processing

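The number of genes 2-fold or more apart was 75. Left-out libraries gave 11 to 75, the lowest being without lymphoma 4. It was 40 under a 4-fold rule (35.7% of all genes tested) and 30 over the 31 genes with no overlap or near-identical copy, a subset chosen after seeing the data. In that subset the number lowest in lymphoma 4 was 31. Under a 1.5-fold rule 77 genes were apart (91.9% of all genes tested). The other alternatives gave 67 to 75 genes apart and 74 to 77 lowest in lymphoma 4. Left-out libraries gave 77 to 78 lowest there, a count that leaving out another library could hardly lower. The genes not lowest there were Mrps25 and Mrps6 with DESeq2 size factors or total counts, and Mrpl24, Mrpl40, Mrpl44 and Mrps6 with length adjustment. The median difference between lymphomas 1 and 4 ranged from 1.48 to 2.05, that of lymphoma 2 from 1.21 to 1.55 and that of lymphoma 3 from 1.12 to 1.46. With total counts the median of all genes tested moved from -0.12 to -0.51 between lymphomas 1 and 4, and the members' median to 1.48. The mean share of counts was 0.480% to 0.620% with a library left out. The single-gene ranges of 27 checks moved by more than the gene's SD over libraries, 22 of them without lymphoma 4. No paired analysis was possible because the samples form 1 group.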
